A study of Mus musculus with 6 samples.

Results

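The genes described here encode the sheet-forming proteins of the basement membrane, the thin extracellular layer that surrounds each cardiomyocyte and underlies the endothelium of cardiac vessels. They are the collagen IV chains *Col4a1* and *Col4a2*, the basement membrane zone collagens *Col15a1* and *Col18a1*, the laminin chains *Lama2*, *Lama4*, *Lamb1* and *Lamc1*, the linker *Nid1* (nidogen 1) and *Hspg2* (perlecan, a heparan sulfate proteoglycan). Members were taken by gene symbol from the array annotation. They are 10 of the 27307 gene symbols on the array and are read by 28 of its 56605 probes.

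RNA came from the myocardium of male C57BL/6J mice with a cardiomyocyte deletion of the kinase gene *Clk4* (*Clk4*-cKO), made by a tamoxifen-inducible MerCreMer recombinase under the α-MHC promoter. Both groups carried this deletion and received an AAV9 vector, driven by the CMV promoter, that encoded the actin-binding protein nexilin together with GFP. The 3 control hearts received AAV NEXN-WT, the unchanged protein, and the other 3 received AAV NEXN-S437E, in which glutamate replaces a serine to mimic phosphorylation. The comparison asks which transcripts differ between the mimic and the unchanged protein when the kinase is missing. Animals lacking the vector or carrying a working *Clk4* allele were not analysed here, so a lower value with NEXN-S437E is lower only relative to NEXN-WT.

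In a basement membrane, laminin trimers of an α, a β and a γ chain bind cell surface receptors and polymerise, and collagen IV protomers form a second, covalently crosslinked network. Nidogen and perlecan link the networks. In the heart, the laminin α2 chain is characteristic of the cardiomyocyte basement membrane and the α4 chain of vessels, while collagens XV and XVIII sit at the outer face of the sheet and release antiangiogenic fragments, endostatin in the case of collagen XVIII.

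The oligonucleotides behind the 6 members with the smallest p are given first, since each of these differences rests on the sequence that was hybridised. For *Col15a1*, which had the largest difference of any member lead probe, the whole 60-base probe is shown. Its second reading frame holds 19 codons, of which 6 begin with GG and so encode glycine, each 3 codons after the one before, with no stop codon. That spacing is the repeat of a collagen triple helix, and the glycine codons are in capitals. For the others the first 30 bases of the probe are shown. Positions are those of the array annotation on mm9.
Col15a1 A_55_P2060386 (chr4:47283786-47283845, plus strand): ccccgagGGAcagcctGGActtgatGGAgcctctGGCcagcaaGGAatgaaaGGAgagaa
Col4a1 A_51_P124254 (chr8:11199009-11199068, minus strand): ttttcgtctctggagaaactgtactatcct
Col4a2 A_51_P491350 (chr8:11448840-11448899, plus strand): cagtcttcctaaaatgaggcagagtctagg
Col18a1 A_51_P191700 (chr10:76515820-76515879, minus strand): agcattcagtcagcacccagggctctggct
Nid1 A_51_P339943 (chr13:13604417-13604476, plus strand): tgcttattaatggttctccagatgtataca
Lamc1 A_55_P1981381 (chr1:155066156-155066215, minus strand): actgtggcccttttcaatgtgccttcactt

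The exon, intron or UTR that each probe lies in was not determined, as mm9 sequence and gene models were not used here. The annotation spreads 3 member probes over more of mm9 than their own length, 1347 bases for *Lamb1* A_51_P244287, 927 for *Lamc1* A_66_P130669 and 25855 for *Nid1* A_55_P2084303, as a probe across a splice junction would be. The *Lamc1* probes A_55_P1981381 and A_51_P199354 are shifted by 2 bases and agree at 56 of the 58 positions they share, so their values are nearly repeat measurements of 1 site.

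*Col4a1* and *Col4a2* are transcribed in opposite directions from neighbouring starts. In the RefSeq promoter table (GRCm38.p6) the annotated start of *Col4a1*, on the minus strand, is 11312826 on chromosome 8, and that of *Col4a2*, on the plus strand, is 11312805. By these positions both transcripts run through the bases between the starts, so their first bases overlap. The 300-base windows of the pair share 78 bases. The stretch chr8:11312801-11312830 on the plus strand is printed below, with the 22 bases from 1 start to the other in capitals, because these are the only members with a common start region and their changes are compared below.
Col4a1 and Col4a2 start region: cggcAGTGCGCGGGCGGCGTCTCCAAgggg

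The capitals contain 1 GC box (GGGCGG, searched on both strands). Across the 522 bases that the pair's windows cover together, 73.95% of bases are G or C, with 3 GC boxes, 2 CCAAT boxes (CCAAT) and 0 TATA boxes (TATAAA). The table holds 9 windows for 8 of the members and none for *Lama4* and *Lamc1*. A GC box occurs in 7 of the 9 member windows and in 35.66% of all 32851 windows, a CCAAT box in 5 of 9 and in 37.41%, and a TATA box in 0 of 9 and in 13.62%. The 9 windows are not separate, since those of *Col4a1* and *Col4a2* share the GC box printed above and *Col18a1* has more than 1 window. The share of G or C runs from 50.33% to 74.0% in the member windows, with a median of 52.67% over all windows. Motif counts were not adjusted for that share. The counts are letter matches and say nothing about factor binding.

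Each value below is the log2 signal of a probe minus the 75th percentile of its own array, so that 0 means a signal equal to that percentile. Levels of different probes are not compared, since probes differ in brightness. A probe was tested where the scanner software put it well above background in every heart of NEXN-WT, of NEXN-S437E or of both, which left 21 member probes, covering all 10 genes, among 22998 probes. A gene's lead probe is its tested probe with the highest mean over the 6 arrays. The annotation gives a RefSeq mRNA accession for 17 of the 21 tested member probes and for 1 of the 7 that were too dim to test, which are 1 *Col15a1* probe and 2 each for *Lama2*, *Lama4* and *Lamb1*.

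The *Clk4* lead probe read 1.48, 1.12 and 1.30 with NEXN-WT and 1.49, 1.18 and 1.63 with NEXN-S437E, and the *Nexn* lead probe read 3.84, 3.35 and 3.26 and then 3.18, 3.43 and 3.89. Neither separated the groups (log2 fold changes 0.13 and 0.02), and the *Clk4* probes were not placed relative to the deleted exons. NEXN-WT replicate 1 stood apart. Its mean absolute difference over all tested probes was 0.38 and 0.44 from the other NEXN-WT arrays, against 0.25 between those, and it was the highest NEXN-WT array at 9 of the 10 member lead probes. All 6 arrays were on 1 slide, with NEXN-S437E replicates 2 and 3 in row 2 and the other 4 arrays in row 1.

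With NEXN-S437E, 9 of the 21 tested member probes were lower at an unadjusted p of 0.05 and 0 were higher, against 6.70% of all tested probes that were lower at that p and 10.5% that were higher. These probes belong to 6 genes: *Col4a1*, *Col4a2*, *Col15a1*, *Col18a1*, *Lamc1* and *Nid1*. Only 1 member probe, that of *Col15a1*, also met the study's 2-fold threshold, where 1.78% of all tested probes were called lower. After Benjamini-Hochberg adjustment over all tested probes 0 member probes passed 0.05, against 0.161% of all tested probes in either direction, and the smallest adjusted p of a member was 0.104 (limma). The 3 NEXN-S437E arrays all lay below the 3 NEXN-WT arrays at 9 member probes, against 9.17% of all tested probes. The median log2 fold change was −0.45 over the 21 member probes and 0.09 over all tested probes. The tested probes include 2, *Lama2* A_55_P2634894 and *Lamc1* A_65_P04394, that passed the filter through NEXN-WT and were well above background on 1 NEXN-S437E array, and the latter is among the 9. Among the 19 member probes well above background on all 6 arrays, 8 were lower, against 5.99% of the 21110 such probes. Probe counts are not counts of independent measurements, because up to 4 tested probes read 1 gene and the *Lamc1* pair reads 1 site.

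Without NEXN-WT replicate 1, 8 of the 21 member probes were lower at an unadjusted p of 0.05, against 5.89% of all 23158 probes then tested, in the same 6 genes, and the median member log2 fold change was −0.29. With any 1 array left out, between 6 and 11 member probes passed that p, all of them lower. The 11 were found without NEXN-WT replicate 3, where 8.55% of all tested probes were lower, and the 6 without NEXN-S437E replicate 2, where 4.92% were. The lead probes of *Col4a1*, *Col4a2*, *Col15a1*, *Col18a1* and *Nid1* and the *Lamc1* probe A_51_P199354 passed in each of these 6 fits. With the slide row as a block, 1 heart, replicate 1, stands for NEXN-S437E. In that fit the lead probes of *Col4a1*, *Col4a2* and *Nid1* gave −0.73, −0.69 and −0.74. Those of *Col15a1* and *Col18a1* gave −1.004 and −0.34, against −1.48 and −0.74 without the block. The remaining lead probes ran from −0.40 (*Lamc1*) to −0.09 (*Hspg2*). The *Lama2* probe A_55_P2634894 gave −2.08, but it passed the filter through NEXN-WT and was well above background on 1 NEXN-S437E array in all.

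**Figure D1:**
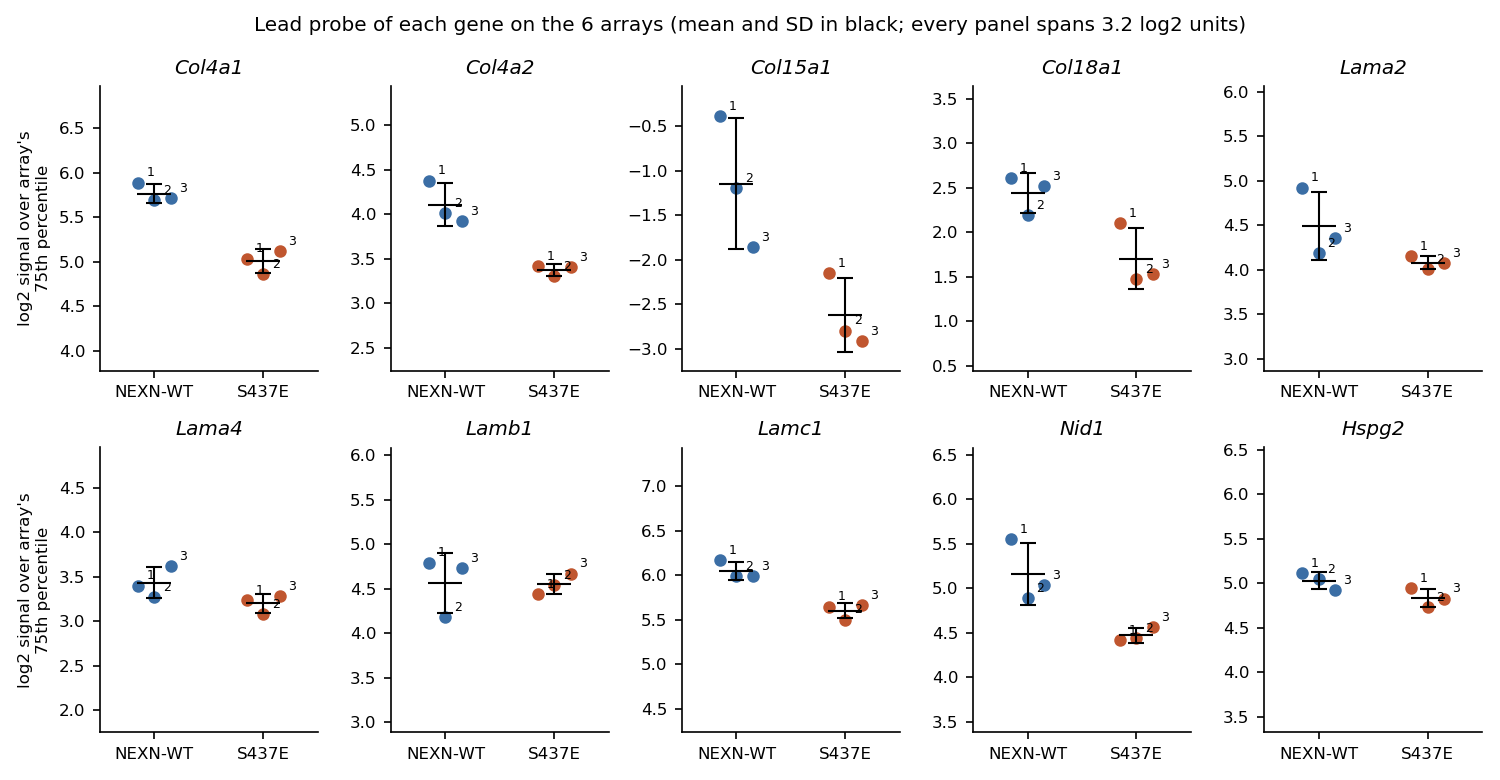
Log2 signal of each member's lead probe over the array's 75th percentile (y axis, 3.2 log2 units in every panel) on the 3 NEXN-WT arrays (blue) and the 3 NEXN-S437E arrays (orange), with replicate numbers beside the points and the group mean ± SD in black. The groups do not overlap for Col4a1, Col4a2, Col15a1, Col18a1, Lama2, Lamc1 and Nid1, and overlap for Lama4, Lamb1 and Hspg2.

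Collagen IV chains had the smallest p of the members. *Col4a1* encodes the α1 chain, present as 2 copies in the main collagen IV protomer. NEXN-WT hearts had log2 signals of 5.89, 5.69 and 5.72, and NEXN-S437E hearts of 5.03, 4.86 and 5.12. Every NEXN-S437E heart was below every NEXN-WT heart, and the gap between the groups was wider than the range within either. *Col4a1* had a log2 fold change of −0.76 (95% confidence interval −1.10 to −0.42, adjusted p = 0.104), a 1.69-fold lower signal. *Col4a2*, the α2 chain that completes the protomer, read 4.38, 4.02 and 3.93 with NEXN-WT and 3.42, 3.30 and 3.41 with NEXN-S437E. Again the groups were apart, with the highest value in NEXN-WT replicate 1. Its log2 fold change was −0.73 (−1.11 to −0.35, adjusted p = 0.131), a 1.66-fold lower signal.

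The ratio of *Col4a1* to *Col4a2*, the pair with the common start region printed above, changed within an array by −0.03 on the log2 scale between the groups. Its SD was 0.14 over the NEXN-WT arrays and 0.08 over the NEXN-S437E arrays (exact permutation test, two-sided, p = 0.8, adjusted p = 0.8 over the 6 ratios computed). This p does not show that the pair changed by the same amount, and with 3 arrays against 3 the smallest p the test can give is 0.1. The sign of this small ratio turned under some of the alternatives given at the end.

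*Col15a1* had the widest change of the lead probes and the widest spread. It read −0.38, −1.20 and −1.86 with NEXN-WT and −2.15, −2.80 and −2.92 with NEXN-S437E. The groups did not overlap, but the NEXN-WT hearts were far apart, with replicate 1 on top. The transcript fell by 1.48 on the log2 scale (−2.33 to −0.62, adjusted p = 0.145), a 2.78-fold lower signal past the study's thresholds. Without NEXN-WT replicate 1 the log2 fold change was −1.09, still past both thresholds. A normexp background correction, which adds an offset and shrinks differences of dim probes, brought it to −0.58. With the slide row as a block it was −1.004 and did not pass an unadjusted p of 0.05, with 1 NEXN-S437E heart in that comparison. A second *Col15a1* probe was well above background on 1 array only and gives no comparison.

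*Col18a1*, the source of endostatin, read 2.61, 2.19 and 2.52 with NEXN-WT and 2.10, 1.47 and 1.53 with NEXN-S437E. NEXN-S437E replicate 1 nearly reached the lowest NEXN-WT heart, and the other 2 lay well below. The difference was −0.74 on the log2 scale (−1.22 to −0.25, adjusted p = 0.182) and with the slide row as a block it was −0.34, which did not pass an unadjusted p of 0.05. The *Col15a1* to *Col18a1* ratio changed by −0.74 (exact permutation test, p = 0.3, adjusted p = 0.45), with an SD of 0.71 over the NEXN-WT arrays.

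*Nid1* bridges laminin γ1 and collagen IV. Its lead probe read 5.55, 4.89 and 5.03 with NEXN-WT and 4.41, 4.44 and 4.57 with NEXN-S437E. The NEXN-S437E hearts were close together and all lower. *Nid1* had a log2 fold change of −0.69 (−1.13 to −0.24, adjusted p = 0.176), a 1.61-fold lower signal. Probe A_55_P2084303 gave −0.59 without overlap and also passed an unadjusted p of 0.05, though not with every array left out in turn. Probe A_66_P133343 gave −0.41 (adjusted p = 0.577), with the NEXN-WT hearts spread from −2.80 to −1.11 around the NEXN-S437E hearts.

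**Figure D2:**
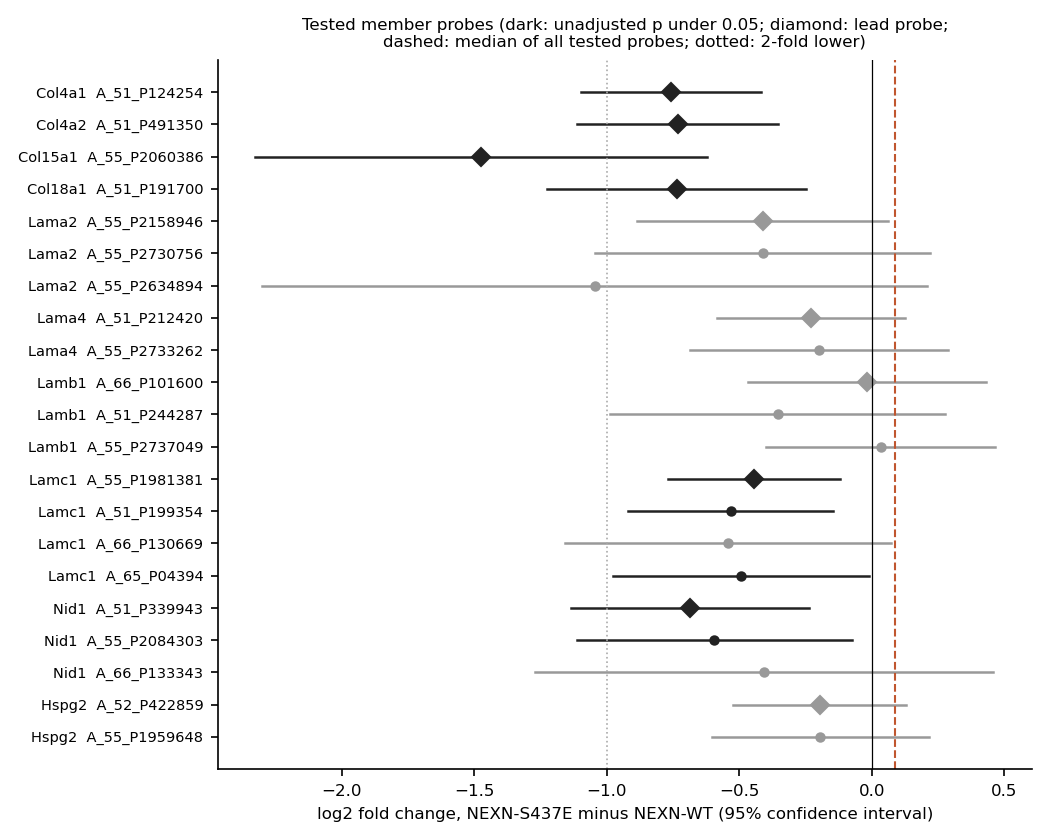
Log2 fold change (NEXN-S437E minus NEXN-WT, x axis) with its 95% confidence interval for each of the 21 tested member probes (y axis), dark where the unadjusted p is under 0.05 and with a diamond for the lead probe of a gene. The intervals of 9 probes, of Col4a1, Col4a2, Col15a1, Col18a1, Lamc1 and Nid1, lie wholly left of 0, those of the other 12 include 0, and 1 point estimate is above 0.

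Among the member laminin chains, *Lamc1*, the γ1 chain shared by most laminins, was the one with probes past an unadjusted p of 0.05. Its lead probe read 6.17, 5.99 and 5.98 with NEXN-WT and 5.65, 5.50 and 5.66 with NEXN-S437E. The groups were apart, with an SD of 0.10 and 0.09 (n = 3 each). The difference of −0.45 (−0.77 to −0.12, adjusted p = 0.2) was a 1.36-fold lower signal. It was −0.39 without NEXN-S437E replicate 2 and −0.40 with the slide row as a block, and in neither fit did it pass an unadjusted p of 0.05. The overlapping probe A_51_P199354 gave −0.53 (adjusted p = 0.2). Probe A_65_P04394 gave −0.49, past an unadjusted p of 0.05, but it was well above background on 1 NEXN-S437E array only. Probe A_66_P130669, spread over 927 bases, gave −0.54 with overlapping groups (adjusted p = 0.331).

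*Lamb1*, the β1 chain, is found with *Lamc1* in the same trimers. Its lead probe read 4.79, 4.18 and 4.73 with NEXN-WT and 4.44, 4.54 and 4.67 with NEXN-S437E. The NEXN-S437E values lay inside the NEXN-WT range. Its log2 fold change was −0.02 (−0.47 to 0.43, adjusted p = 0.97), so a difference as large as the −0.45 of *Lamc1* was inside its interval. The other tested *Lamb1* probes gave −0.36 and 0.03, with overlapping groups. The sign of the lead probe turned under 4 alternatives, and with array weights it was 0.34 and passed an unadjusted p of 0.05 as higher. Whether *Lamb1* and *Lamc1* differ in their change was not tested.

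*Lama2*, whose product anchors the cardiomyocyte to the basement membrane and whose loss causes a congenital muscular dystrophy, read 4.92, 4.19 and 4.36 with NEXN-WT and 4.16, 4.01 and 4.08 with NEXN-S437E. The groups did not overlap, though the highest NEXN-S437E heart was close to the lowest NEXN-WT heart. The difference was −0.41 (−0.88 to 0.06, adjusted p = 0.339), and without NEXN-WT replicate 1 it was −0.20. Probe A_55_P2730756 also gave −0.41 (adjusted p = 0.447). Probe A_55_P2634894 gave −1.05 (adjusted p = 0.351), with NEXN-S437E values from −4.69 to −2.31, and was well above background on 1 NEXN-S437E array.

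*Lama4*, the vascular α chain, read 3.40, 3.27 and 3.62 with NEXN-WT and 3.24, 3.08 and 3.28 with NEXN-S437E. The highest NEXN-S437E heart reached into the NEXN-WT range. Its log2 fold change was −0.23 (−0.58 to 0.12, adjusted p = 0.449), and that of the other tested *Lama4* probe was −0.20. In the deposited normalized log2 values the lead probe differed by −0.33 and the groups did not overlap. The *Lama2* to *Lama4* ratio changed by −0.18 (exact permutation test, p = 0.8, adjusted p = 0.8), against an SD of 0.41 over the NEXN-WT arrays.

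*Hspg2*, which encodes perlecan, read 5.12, 5.05 and 4.93 with NEXN-WT and 4.94, 4.73 and 4.83 with NEXN-S437E. The groups met at 1 heart each. Its log2 fold change was −0.20 (−0.52 to 0.13, adjusted p = 0.482), and the other *Hspg2* probe gave −0.19. In the normalized log2 values that the authors deposited the *Hspg2* lead probe differed by −0.37 without overlap. As lower, the lead probes of *Lama2*, *Lama4* and *Hspg2* passed an unadjusted p of 0.05 under 2, 3 and 2 alternatives, normexp correction among them for each gene.

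The ratio of *Col4a1* to *Lamc1* changed by −0.31, with SDs of 0.02 and 0.05 over the arrays of the groups, and its groups did not overlap (exact permutation test, p = 0.1, the smallest it can give, adjusted p = 0.2). The ratio of *Col4a1* to *Pecam1*, an endothelial adhesion molecule, changed by −0.81, and that of *Col4a1* to the fibrillar *Col1a1* by 1.06 (each p = 0.1 and adjusted p = 0.2 by the same exact test). The *Pecam1* and *Col1a1* ratios had SDs of 0.48 and 0.56 over the NEXN-WT arrays. Without NEXN-WT replicate 1 these ratios changed by −0.54 and 0.75. *Col4a1* was thus lower relative to *Lamc1* and *Pecam1* and higher relative to *Col1a1* in every NEXN-S437E heart than in any NEXN-WT heart.

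**Figure D3:**
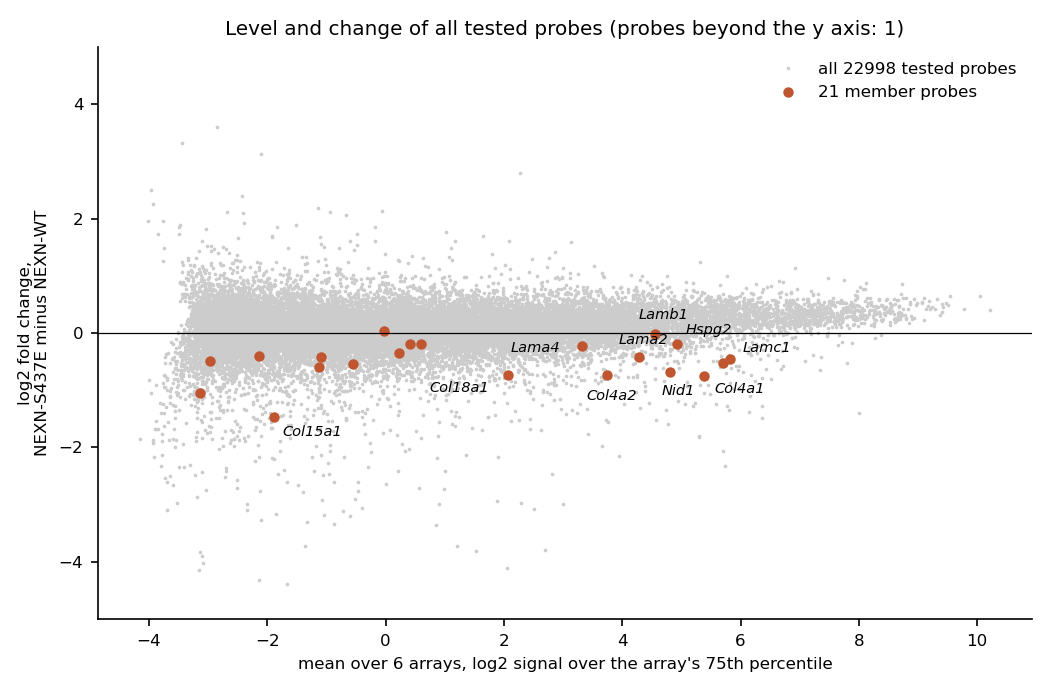
Log2 fold change (NEXN-S437E minus NEXN-WT, y axis) against the mean log2 signal over the array's 75th percentile (x axis) for all 22998 tested probes (grey) and the 21 member probes (orange), with lead probes named; 1 probe lies beyond the y axis. Member probes are spread over dim and bright signals and 20 of 21 lie below 0.

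The other genes of the basement membrane were read through 1 lead probe each, and lower or higher below means past an unadjusted p of 0.05. Of all 13747 lead probes, 7.91% were lower and 10.1% higher in this sense. Among the other collagen IV chains, 2 of the 3 tested were lower and 0 were higher. *Col4a4* had a log2 fold change of −0.77 (adjusted p = 0.231) and *Col4a5* of −0.68 (adjusted p = 0.274). *Col4a6* gave −0.76 without passing (adjusted p = 0.36), and *Col4a3* was too dim to test. The median of the 3 was −0.76, next to −0.57 over the 10 member lead probes and 0.07 over all lead probes. Without NEXN-WT replicate 1 the values were −0.46 for *Col4a4*, −0.33 for *Col4a5* and −0.27 for *Col4a6*, and the median was −0.33, while that of the member lead probes −0.44.

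Of the 5 other laminin chains tested, *Lama3* was lower (−0.41, adjusted p = 0.275). *Lamb3*, a β chain of epithelial laminin, was higher (0.96, adjusted p = 0.185), and was at 0.70 without NEXN-WT replicate 1. The median of the 5 was −0.12, or −0.23 without that array. *Lamb2*, the β2 chain, gave −0.24 and *Lama5* −0.12 (−0.23 without that array), neither of them past the test. The 11 further components had a median of −0.17, and 4 of them were lower and 1 was higher. *Fbln1*, the matrix glycoprotein fibulin 1, was the only one called at the study's thresholds. It was at 5.57 ± 0.49 with NEXN-WT and 3.98 ± 0.25 with NEXN-S437E (SD, n = 3), a log2 fold change of −1.59 (adjusted p = 0.0799). *Nid2*, which encodes the other nidogen, gave −0.45 (adjusted p = 0.222), *Fbln2* −0.48 (adjusted p = 0.238), *Agrn* (agrin) −0.38 (adjusted p = 0.26) and *Egflam* (pikachurin) 0.99 (adjusted p = 0.134). Without NEXN-WT replicate 1, 3 of the 11 were lower and 1 was higher, and *Agrn* (−0.29) no longer passed. *Fbln1* was then at −1.38, *Nid2* at −0.38, *Fbln2* at −0.32 and *Egflam* at 0.73.

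Genes for enzymes and chaperones that modify, fold or crosslink collagen chains had a median of −0.30, and 3 of the 13 were lower and 0 higher. These were *P3h2*, a prolyl 3-hydroxylase, at −0.96 (adjusted p = 0.159), *Loxl2*, a lysyl oxidase that crosslinks collagen IV, at −0.87 (adjusted p = 0.174), and the prolyl 4-hydroxylase subunit *P4ha1* at −0.54 (adjusted p = 0.2). Without NEXN-WT replicate 1 *P3h2* was at −0.70, *Loxl2* at −0.60 and *P4ha1* at −0.54. Cell surface receptors were at a median of −0.04, with 0 of 10 lower and 1 higher. That receptor was *Itga7*, the integrin α7 subunit by which cardiomyocytes bind laminin, at 0.45 (adjusted p = 0.282), and without NEXN-WT replicate 1 no receptor was higher and 1 was lower. *Itgb1* gave −0.09 and *Dag1* (dystroglycan) 0.11. Without that array both were at −0.03 and *Itga7* was at 0.27.

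The 8 proteases tested included 4 that were lower and 0 that were higher, and their median was −0.63, or −0.35 without NEXN-WT replicate 1. *Mmp2*, the gelatinase that cuts collagen IV, fell by 1.76 on the log2 scale (adjusted p = 0.133) and *Adamts4* fell by 1.44 (adjusted p = 0.104). Without NEXN-WT replicate 1 their log2 fold changes were −1.23 and −1.13. *Mmp14*, the membrane protease that activates proMMP2, was well above background in all NEXN-WT hearts and in 0 NEXN-S437E hearts. It was at least 2.25-fold lower in the latter, or 1.82-fold without NEXN-WT replicate 1. *Mmp14* is among the 4 but passed the filter through NEXN-WT only. Its adjusted p of 0.11 (limma) rests on dim NEXN-S437E values and does not test the bound. *Bmp1*, the procollagen C-proteinase, gave −0.92 (adjusted p = 0.136).

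Fibrillar collagens, which are interstitial and not part of the basement membrane, were lower in 6 of 6 cases with a median of −1.53, or −1.10 without NEXN-WT replicate 1. *Col1a1* fell by 1.82 on the log2 scale (adjusted p = 0.0815), *Col5a1* by 1.56 (adjusted p = 0.0853), *Col1a2* by 1.49 (adjusted p = 0.114) and *Col3a1* by 1.34 (adjusted p = 0.0815). *Col5a2*, well above background in 0 NEXN-S437E hearts, was at least 3.03-fold lower, a bound that came to 1.59-fold without NEXN-WT replicate 1. It is among the 6 but passed the filter through NEXN-WT only. Its adjusted p of 0.224 (limma) rests on dim NEXN-S437E values and does not test the bound. *Col5a3* gave −0.85 (adjusted p = 0.107). In these lists 0 genes passed an adjusted p of 0.05 (limma).

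**Figure D4:**
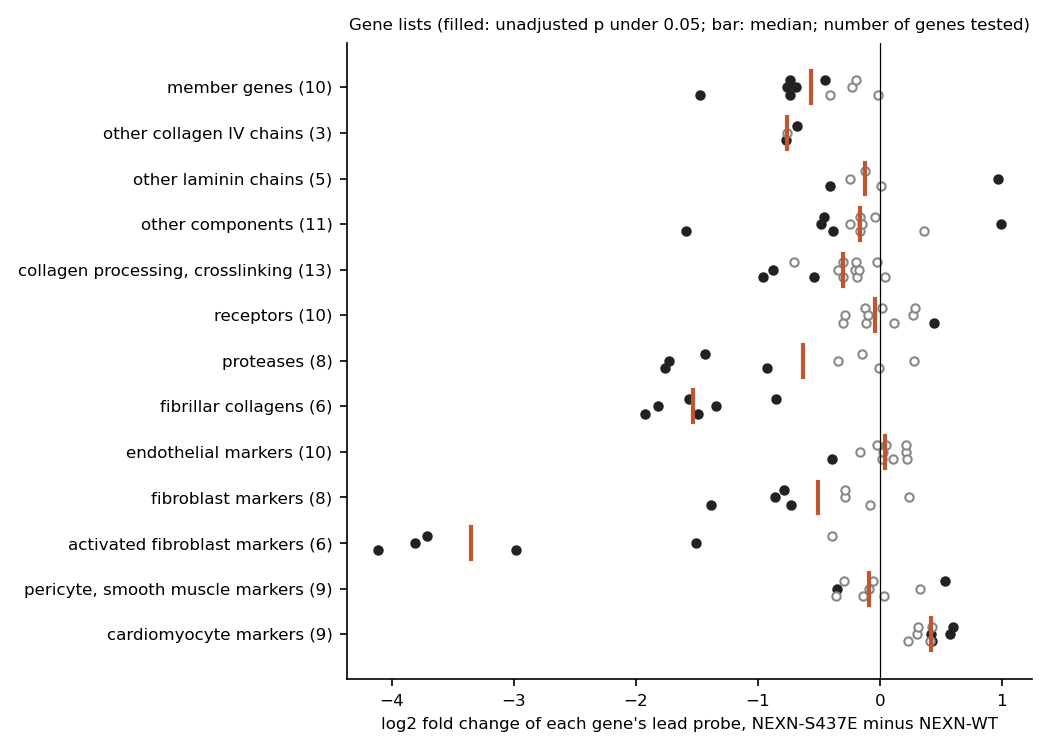
Log2 fold change (NEXN-S437E minus NEXN-WT, x axis) of each tested gene's lead probe by list (y axis, number of genes tested in parentheses), filled where the unadjusted p is under 0.05, with the median of each list as an orange bar. The member genes have a median of −0.57, the fibrillar collagens of −1.53, the activated fibroblast markers of −3.35, the endothelial markers of 0.04 and the cardiomyocyte markers of 0.42.

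These are whole-tissue samples, in which fewer cells of a type and less RNA per cell cannot be told apart. Markers of cells that make basement membrane moved unequally. Endothelial markers were lower in 1 of 10 cases (*Cldn5*, −0.39) and higher in 0, with a median of 0.04, or −0.10 without NEXN-WT replicate 1. Their summed signal, in units of the array's 75th percentile, ran from 230 to 297 with NEXN-WT and from 257 to 318 with NEXN-S437E. Pericyte and smooth muscle markers were lower in 1 of 9 (*Pdgfrb*, −0.35) and higher in 1 (*Abcc9*, 0.54), with sums of 149 to 202 and 149 to 208. Their median was −0.09, or −0.23 without NEXN-WT replicate 1, where 0 were lower and 1 was higher. Fibroblast markers were lower in 4 of 8 with a median of −0.51, and *Mfap5* at −1.38 was past the study's thresholds. Their sums were 760 to 948 and 762 to 793, to which the bright *Dcn* (−0.08) and *Gsn* (0.24), neither past the test, contributed. Without NEXN-WT replicate 1, 3 of the 8 fibroblast markers were lower, their median was −0.35 and *Mfap5* was at −1.003.

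Markers of activated fibroblasts were lower in 5 of 6 cases. *Cilp* (−3.81, adjusted p = 0.0221), *Comp* (−4.11), *Cthrc1* (−3.71), *Postn* (−2.98) and *Meox1* (−1.51) were called at the study's thresholds. *Fap* gave −0.39, or −0.16 without NEXN-WT replicate 1, and *Tnc* was too dim to test. *Cthrc1* was well above background on 1 NEXN-S437E array only. Without NEXN-WT replicate 1, the highest heart for each of the 5, their values were −3.23 for *Cilp*, −3.23 for *Comp*, −2.57 for *Cthrc1*, −2.13 for *Postn* and −1.03 for *Meox1*, and the median of the list moved from −3.35 to −2.35. Their summed signal ran from 37.6 to 184 with NEXN-WT and from 9.86 to 11.2 with NEXN-S437E. Cardiomyocyte markers were higher in 4 of 9 cases (*Myh6*, 0.58; *Tnni3*, 0.60) and lower in 0, with a median of 0.42 and sums of 2083 to 2684 and 3162 to 3280. Without NEXN-WT replicate 1, 3 of 9 were higher, the median was 0.29 and *Tnni3* was at 0.33.

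T cell markers were lower in 4 of 5, with sums of 2.52 to 3.47 and 1.34 to 1.45. *Cd3d* gave −2.49 (limma, adjusted p = 0.0221) and *Lck* −2.07 (adjusted p = 0.0192). *Cd3g*, at least 2.18-fold lower, was well above background in 0 NEXN-S437E hearts, so its call rests on dim values there. Macrophage markers were lower in 2 of 8 and had a median of −0.01, or in 1 of 8 with a median of 0.02 without NEXN-WT replicate 1. Schwann cell, mesothelial and atrial cardiomyocyte lists rested on 4, 2 and 3 tested markers with medians of 0.38 (0.13 without NEXN-WT replicate 1), 0.48 and −0.62, *Nppa* among the last at −1.39 (adjusted p = 0.0254), and 0 of 4 adipocyte markers were bright enough to test. The part of these cell types in the member differences was not tested.

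The genes most like each member were sought among 13737 other lead probes by the root mean square (RMS) difference over the 6 arrays of values centred on each probe's mean. For *Col4a2* these were *Praf2* (0.04), *Cers6* and *Dapk2*, and for *Col4a1* they were *Il21r* (0.08), *Praf2* and *Bmf*. The 2 collagen IV chains differed from each other by an RMS of 0.09, with 4 non-member genes closer to *Col4a1* and 21 closer to *Col4a2*. *Col15a1* was nearest to *Bnc2* (0.12), *Tmem119* and *Sfrp1*, and 384 genes were closer to it than its nearest member, *Col4a2* (0.53). *Col18a1* was nearest to *Traf1* (0.08), *Pdk3* and *C1qtnf1*, and *Nid1* to *Tbx18* (0.06), *Gpsm2* and *Ecm2*. *Lama2* was nearest to *Efemp2* (0.02), *C1qtnf2* and *Hif1a*, and *Lama4* to *Fhl1* (0.03), *Cmtm6* and *Elk3*. *Lamb1* was nearest to *Fgf7* (0.06), *Hmgb2* and *Bbs4*, and *Lamc1* to *Stat2* (0.04), *Snx18* and *Gmcl1*. *Hspg2* was nearest to *Bcl2l11* (0.02), *Dock2* and *Aff1*. Over 6 arrays many genes come this close, and the likeness is a description.

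**Figure D5:**
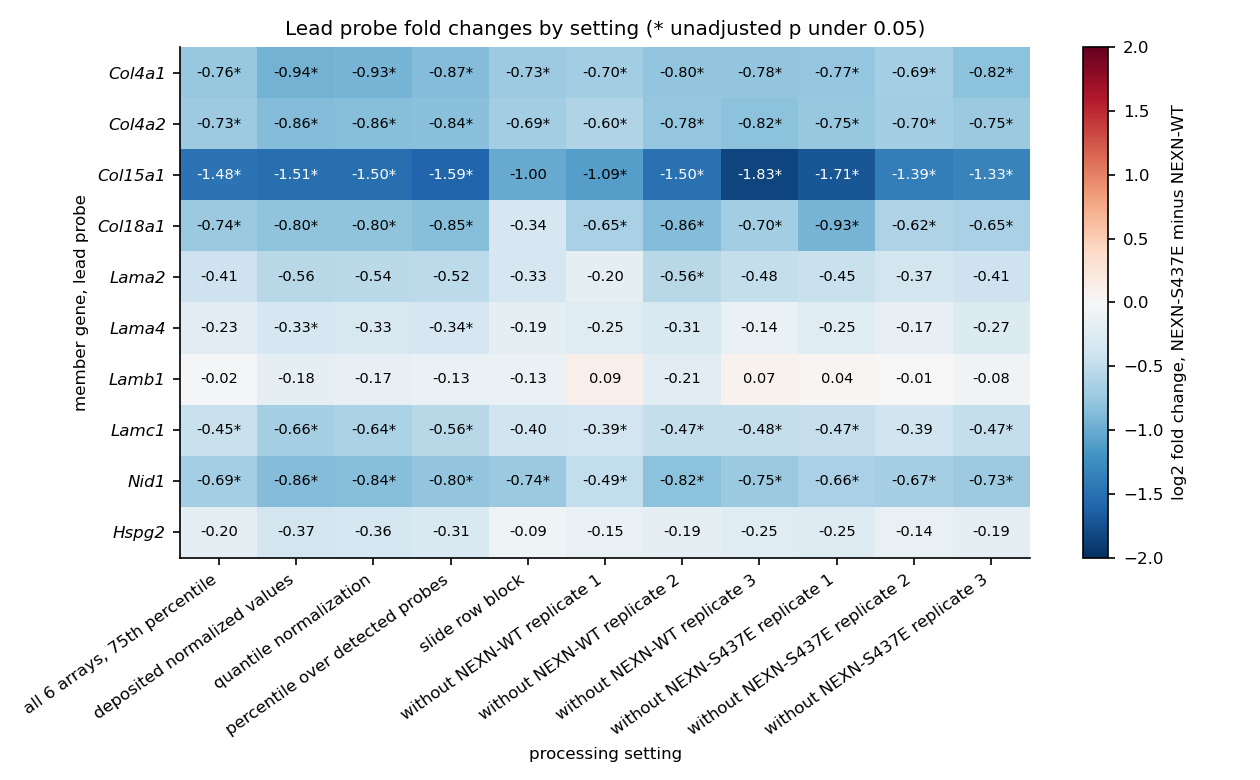
Log2 fold change (NEXN-S437E minus NEXN-WT, colour and printed value) of each member's lead probe (y axis) under the processing settings named on the x axis, with an asterisk where the unadjusted p is under 0.05. Col4a1, Col4a2 and Nid1 stay negative with p under 0.05 in every column, and Lamb1 takes both signs; the slide row column rests on 1 NEXN-S437E heart.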

How the data were processed

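RNA from 3 NEXN-WT and 3 NEXN-S437E samples was hybridised to Agilent SurePrint G3 Mouse arrays (design 074809, 1 colour, Cy3), all on 1 slide in 1 scan. The authors extracted the spots with Agilent Feature Extraction 10.7.1.1 and deposited intensities on a linear scale, background-subtracted and not normalized between arrays. They also deposited normalized log2 values whose 6 columns have the same distribution, by a method not given in the sources used here. Where a label gives no litter or batch, p-values measure only the spread between these samples.

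From the deposited intensities, control and outlier spots were dropped, log2 signals were centred on the 75th percentile of the array's non-control spots, and spots were averaged per probe. The 75th percentile of the signal ran from 110 to 273, between 41.9% and 47.8% of spots were well above background, and 0 were saturated. The 22998 probes that were well above background in every heart of either group were tested with limma 3.58.1 (lmFit, eBayes) in R 4.3.3, with Benjamini-Hochberg adjustment over all of them. The study's thresholds were a 2-fold change and an unadjusted p of 0.05. An "at least" fold divides the bright group by a floor, taken on each dim array as its faintest probe well above background, or as the dim probe itself where that was brighter. Ratios were compared with an exact permutation test over arrays. The fit was tested on simulated data.

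All member genes are described, with the fold change of every tested probe. From the other lists, genes called at the study's thresholds or up to 4 with the smallest p are named, and a few further genes were named after their values were seen. Members and lists were chosen with earlier results of these data known, so no list is independent evidence. Alternatives were quantile normalization, the percentile over detected probes, the deposited normalized values, normexp correction (offset 50), no filter, a filter on all 6 arrays, outlier spots kept, the methods' t-test, an intensity trend, array weights, replicate and slide row blocks, a 1.5-fold threshold, 1 probe per gene and each array left out. Figures were drawn with matplotlib 3.10.9 and pandas 2.3.3 in Python 3.11.15.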

Additional observations from a re-analysis of the deposited data

How the results depend on the processing

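The number of member probes past an unadjusted p of 0.05 (9) stayed between 6 and 12 under the alternatives. The 12 came with array weights, where 11 were lower and 1 (*Lamb1*) higher, against 13.8% and 21.3% of all probes. A count of 6 came without NEXN-S437E replicate 2 and with 1 probe per gene, where 10 member probes were tested. The 2-fold count of members (1) was 0 with normexp correction, 6 at 1.5-fold, and 2 with no filter, where the added *Lama2* probe A_55_P2717777 was above background on 1 array. Leaving out 1 array gave 1 to 2, the added probe being *Lama2* A_55_P2634894 without NEXN-S437E replicate 3. That probe passed the filter through NEXN-WT and was well above background on 1 NEXN-S437E array. Replicate 3 was its brightest there (−2.31, against −4.69 and −3.97), so the added call rests on dim values. With the slide row block, where 1 heart stands for NEXN-S437E, this *Lama2* probe was at −2.08 and the *Col15a1* lead probe at −1.004. The heart compared, replicate 1, read −4.69 at the *Lama2* probe, the lowest of the NEXN-S437E arrays. The −2.08 therefore rests on a dim value. No member passed an adjusted p of 0.05 (limma) except with array weights, where 7 of 21 did and 16.6% of all probes did. Those weights ran from 0.196 (NEXN-WT replicate 1) to 4.22. The count over all probes past the 2-fold threshold (579) was 180 with normexp correction, 2269 with no filter, 345 with the filter on all 6 arrays, 2065 at 1.5-fold, and 368 to 1006 with 1 array left out, lowest without NEXN-WT replicate 1 and highest without NEXN-WT replicate 3. The methods' t-test gave 412 probes past the 2-fold threshold, 7 member probes lower at an unadjusted p of 0.05, against 5.16% of all probes, and 0 probes after Benjamini-Hochberg adjustment.

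The *Col4a1* to *Col4a2* ratio turned to 0.039 with normexp correction and ran from −0.10 to 0.040 with 1 array left out, positive without NEXN-WT replicate 3 (0.040) or NEXN-S437E replicate 2 (0.010). The *Col15a1* to *Col18a1* ratio turned to 0.060 with normexp correction and ran from −1.14 (without NEXN-WT replicate 3) to −0.44 (without NEXN-WT replicate 1), and the *Lama2* to *Lama4* ratio ran from −0.34 to 0.050, positive without NEXN-WT replicate 1. *Lamb1* turned to 0.34 with array weights, past an unadjusted p of 0.05, and ran from −0.21 to 0.094 with 1 array left out, positive for 3 of the 6 arrays. The cause was not tested for any of these.

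With the replicate number as a replicate block, 8 member probes were lower at an unadjusted p of 0.05, against 6.08% of all probes, 1 passed the 2-fold threshold and 0 the adjusted p, and 591 probes in all passed the 2-fold threshold. No call of a lead probe changed. The labels do not say that equal numbers mark paired hearts, and same-numbered arrays deviated with correlations of −0.15, −0.03 and −0.18. Taking the percentile over detected probes moved the median of all tested probes by −0.11. The signal over background limits the comparison at 7 member probes, which were too dim to test, and at 2 tested ones that were well above background on 1 NEXN-S437E array.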
